A study of Homo sapiens with 12 samples.

Results

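Promoter regions that carried BCL9 but not phosphoserine STAT3 (pSTAT3) were examined in DCIS.COM cells, a basal breast cancer cell line used as a model of ductal carcinoma in situ (DCIS). The data were ChIP-exo peak-pair lists, in which an exonuclease trims the immunoprecipitated DNA to the edges of the crosslinked protein and each pair of edges gives one position with a tag number. The BCL9-knockdown (KD) cells gave 2 BCL9 and 2 pSTAT3 libraries, and the non-silencing control cells gave 3 BCL9, 3 pSTAT3 and 1 CTCF library. Both are the same cell line in the same serum medium, transduced with a lentiviral BCL9 shRNA or a non-silencing vector and otherwise untreated. The labels call the replicates biological, without saying whether they came from separate transductions. The loss of BCL9 protein cannot be checked from peak lists, and no list of the IgG control was used here.

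The regions were chosen by the control lists alone. Each peak pair became a 100 bp window round its midpoint, and windows were merged per antibody into regions present in at least 2 of 3 control libraries. This gave 11623 BCL9 and 37044 pSTAT3 regions, or 40125 when overlapping ones were counted once. Of the BCL9 regions, 2950 overlapped no pSTAT3 region, and 627 of these had their midpoint within 1 kb of a protein-coding transcription start site (TSS). These 627 BCL9-only promoter regions were 5.39% of all BCL9 regions and lay nearest to the TSSs of 592 genes. Since presence in control BCL9 lists and absence from control pSTAT3 regions selected them, those values are given as a description and were not tested.

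BCL9 is a coactivator that binds β-catenin and Pygopus proteins and has no DNA-binding domain of its own, so it reaches DNA through other proteins. STAT3 is a transcription factor that is activated by cytokine and growth factor receptors. Promoters of widely expressed genes usually lie in CpG islands and hold short factor sites such as the GC box, bound by SP1-family proteins, and the CCAAT box, bound by the NF-Y complex. AP-1 factors, which include JUN and FOS proteins, bind a TGANTCA site.

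A feature that the selection did not use, and whose share was higher in these regions than in the other promoter classes, was the CCAAT box. The letters CCAAT, searched on both strands, stood within a 100 bp window round the median BCL9 midpoint in 179 of 627 regions, 28.5% (95% Wilson interval 25.2% to 32.2%). The share was 9.47% in 528 promoter regions shared by BCL9 and pSTAT3 (7.26% to 12.3%) and 9.09% in 3290 promoter regions with pSTAT3 alone (8.15% to 10.1%). In the pSTAT3-only class, motif windows were centred on the median control pSTAT3 midpoint, here and below. Over 78399 annotated TSSs, counted by position and strand, with the window centred 92 bp upstream as in the median BCL9-only region, 17.9% held it. Intervals here cover counting error only, and neighbouring regions of the same gene share sequence.

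Reference sequences of 5 regions are shown because they had many CCAAT boxes and BCL9 peak pairs in all 5 BCL9 libraries. Each is the plus strand of hg19, with CCAAT and its reverse complement ATTGG in capitals. The stretches are SP2 at chr17:45973341-45973580, OSBP at chr11:59383408-59383647, DNM2 at chr19:10828414-10828653, SP1 at chr12:53773698-53773897 and G3BP1 at chr5:151151201-151151400.
SP2: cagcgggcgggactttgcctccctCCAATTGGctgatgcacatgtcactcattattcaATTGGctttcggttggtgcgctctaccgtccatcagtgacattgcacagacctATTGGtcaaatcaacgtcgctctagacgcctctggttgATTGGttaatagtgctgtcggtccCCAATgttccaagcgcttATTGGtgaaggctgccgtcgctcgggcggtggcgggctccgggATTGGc
OSBP: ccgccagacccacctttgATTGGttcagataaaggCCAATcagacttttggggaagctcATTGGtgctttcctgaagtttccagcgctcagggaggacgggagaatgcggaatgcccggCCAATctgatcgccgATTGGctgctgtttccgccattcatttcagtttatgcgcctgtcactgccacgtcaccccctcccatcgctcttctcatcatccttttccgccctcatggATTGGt
DNM2: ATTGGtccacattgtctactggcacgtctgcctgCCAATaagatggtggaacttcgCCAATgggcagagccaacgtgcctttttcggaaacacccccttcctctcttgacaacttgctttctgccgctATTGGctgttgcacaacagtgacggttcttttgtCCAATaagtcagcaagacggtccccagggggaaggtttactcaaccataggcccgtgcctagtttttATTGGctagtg
SP1: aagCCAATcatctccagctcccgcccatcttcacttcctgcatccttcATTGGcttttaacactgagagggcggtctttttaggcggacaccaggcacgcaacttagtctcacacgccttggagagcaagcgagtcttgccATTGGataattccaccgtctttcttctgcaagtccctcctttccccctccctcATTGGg
G3BP1: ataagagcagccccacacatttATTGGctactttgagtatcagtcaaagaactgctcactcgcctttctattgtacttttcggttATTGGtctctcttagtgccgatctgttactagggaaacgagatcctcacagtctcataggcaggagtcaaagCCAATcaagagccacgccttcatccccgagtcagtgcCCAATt

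The boxes often came in groups. Within 200 bp of the BCL9 midpoint, 250 regions (39.9%) held at least 1 box. The share was 18.9% in shared and 18.5% in pSTAT3-only promoter regions, and 26.5% at all TSSs. Of the BCL9-only promoter regions, 129 (20.6%) held 2 or more. The share with 2 or more was 3.60% in shared promoter regions, 3.16% in pSTAT3-only promoter regions, 3.70% in BCL9-only regions away from promoters and 7.5% at all TSSs. At least 3 boxes were found in 73 regions (11.6%), against 1.52% of shared promoter regions and 1.88% of all TSSs. Over the 314 neighbouring pairs of boxes within BCL9-only promoter regions, the median spacing from start to start was 45 bp, with quartiles of 32 and 72.8 bp. The region of SP2, a zinc finger protein of the SP family, held 10 boxes over 575 bp, the highest number among the 627.

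**Figure D1:**
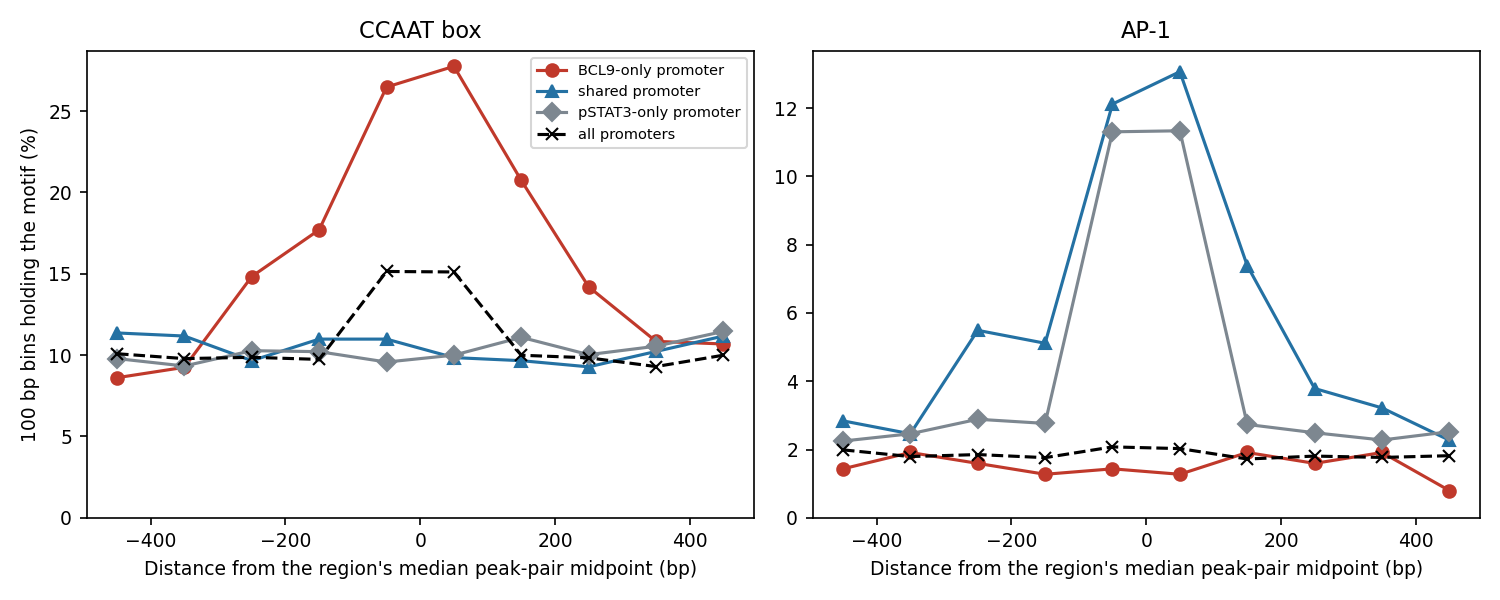
Share of 100 bp bins that hold CCAAT (left) or TGANTCA (right) on either strand, by distance in bp from the median peak-pair midpoint of each region. BCL9-only promoter regions reach 27.8% for CCAAT in the bin just right of the midpoint, where shared promoter regions are at 9.85%, and stay below 2% for AP-1, where shared promoter regions reach 13.1%. Distances run along the plus strand, and the dashed line gives all promoters centred 92 bp upstream of the TSS.

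The difference between the classes was also seen at matched distances from the TSS. Among regions with midpoints 300 to 0 bp upstream of the TSS, CCAAT was present in 127 of 328 BCL9-only promoter regions (38.7%, interval 33.6% to 44.1%). It was present in 25 of 217 shared promoter regions (11.5%) and 148 of 1337 pSTAT3-only promoter regions (11.1%) in the same interval. This comparison was added after the values were seen. With distance from the BCL9 midpoint the CCAAT share of BCL9-only promoter regions declined to 8.61% at 400 to 500 bp on the left and 10.7% on the right.

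The AP-1 site showed the opposite order. It was present in 3 of 627 BCL9-only promoter regions (0.478%, interval 0.163% to 1.40%), against 83 of 528 shared promoter regions (15.7%, 12.9% to 19.1%) and 16.5% of pSTAT3-only promoter regions. At all promoters, centred as above, 2.13% held the site. Control pSTAT3 lists took part in the selection, and their part in this share was not tested. The STAT site TTCNNNGAA was found in 1.91% of BCL9-only promoter regions, 3.03% of shared ones and 2.27% of all promoters. The interval of the BCL9-only share, 1.10% to 3.32%, covers both. TCF/LEF sites (CTTTGAA or CTTTGAT), through which β-catenin acts, were found in 2.55%, against 2.46% of shared promoter regions and 1.81% of all promoters.

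Most other promoter motifs were near or below the level of all promoters. The GC box GGGCGG was present in 20.4% of BCL9-only promoter regions (17.4% to 23.7%), against 32.7% of all promoters. The ETS core CCGGAA was present in 8.29%, against 7.84% of all promoters. The NRF1 string GCGCATGCG was found in 2 regions (0.319%), against 3.13% of pSTAT3-only promoter regions and 0.908% of all promoters. CTCF strings (CCANNAGGG or AGGGGGC) were found in 5.58%, against 9.19% of all promoters, and CACGTG in 2.07%, against 3.21%. The other strings were TGACGTCA (0.478%), AAGATGGCG (0.638%), GGAATG (5.42%), TCTCGCGA (0.319%), GTTGCC (4.15%) and TATAAA (2.55%), for which all promoters gave 0.949%, 0.375%, 4.23%, 0.577%, 4.40% and 2.93% in the same order. A match is a string of letters and not evidence of binding by the factor.

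In base composition the regions were near the values of all promoters. Their median GC content over 100 bp was 59% (quartiles 52% and 65%), against 57% in shared promoter regions, 62% in pSTAT3-only promoter regions and 62% at all promoters. The median ratio of observed to random CpG was 0.71 in BCL9-only promoter regions, against 0.37 in shared promoter regions, 0.65 in pSTAT3-only promoter regions and 0.67 at all promoters. BCL9-only regions away from promoters had a median GC content of 47% and a CpG ratio of 0.18.

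Most regions lay just upstream of the TSS. The median midpoint was at -92 bp (quartiles -218 and 29 bp), and 435 of 627 (69.4%) lay upstream, against 62.3% of shared and 59.9% of pSTAT3-only promoter regions. Upstream by at most 300 bp, without those exactly at the TSS that the CCAAT comparison above included, lay 326 regions (52.0%), against 40.5% of shared and 40.2% of pSTAT3-only promoter regions. A TSS on each strand within 1 kb was found for 94 regions (15.0%), against 5.49% of shared and 10.4% of pSTAT3-only promoter regions and 12.7% of all TSS positions. By annotation, 241 midpoints lay outside protein-coding genes, 182 in introns, 147 in UTR exons, 33 in coding exons and 24 in other exons, counting any transcript of any protein-coding gene. Region length had a median of 181 bp and a range of 100 to 959 bp.

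**Figure D2:**
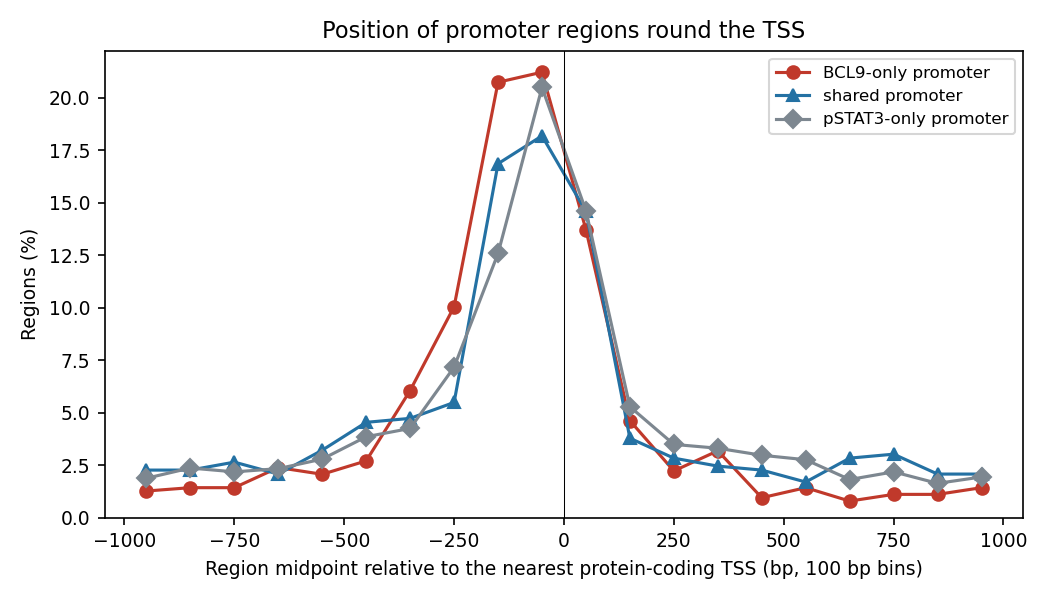
Midpoints of promoter regions relative to the nearest protein-coding TSS, in 100 bp bins as a percentage of each class. BCL9-only promoter regions (n = 627) are most frequent just upstream of the TSS, with a median of -92 bp, against -71.5 bp for shared (n = 528) and -36.0 bp for pSTAT3-only (n = 3290) promoter regions.

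At the 1 kb limit, the outermost regions inside were at MAMSTR (-993 bp), ENSG00000291314 (-990 bp) and BBS4 (983 bp). The nearest BCL9-only regions outside were at IKBKE (-1003 bp), TYW1B (-1007 bp) and APEH (-1012 bp). The IKBKE region had 10 and 7 tags in 2 control BCL9 libraries, and the MAMSTR region 5 and 9 tags in 2.

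The KD libraries did not enter the selection and were measured apart from it. A BCL9 window was present at 351 of the 627 regions in KD replicate 1 (56.0%) and at 451 in KD replicate 2 (71.9%). A pSTAT3 window was present at 242 regions (38.6%) and 286 regions (45.6%) in the KD libraries. The mean share was 64.0% ± 11.3 for BCL9 and 42.1% ± 4.96 for pSTAT3 (SD, n = 2 each), a difference of 21.9 percentage points. Both BCL9 libraries were above both pSTAT3 libraries although the BCL9 lists were shorter, with 95586 and 336493 peak pairs, against 415624 and 493174 for pSTAT3. The exact two-sided permutation p was 0.333, the smallest that 2 against 2 libraries can give.

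List length moved these shares strongly. With the 24728 strongest peak pairs of every library, 38.4% and 35.7% of the regions had a window in the KD BCL9 lists. In the KD pSTAT3 lists 0.478% and 0.638% had one, that is 3 and 4 of 627 regions, a difference of 36.5 points (exact p = 0.333). With at least 9 tags per peak pair, the shares were 44.5% and 48.5% for KD BCL9 and 8.77% and 7.5% for KD pSTAT3.

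The order of the antibodies at BCL9-only promoter regions was the reverse of that at the other classes in the full lists. BCL9-only regions away from promoters (n = 2323) had windows in 41.0% and 61.6% for KD BCL9, and in 62.1% and 66.8% for KD pSTAT3. Promoter regions minus these regions gave 15.0 and 10.4 points in the KD BCL9 libraries and -23.5 and -21.2 points in the KD pSTAT3 libraries, a difference of 35.0 points (exact two-sided permutation p = 0.333, the smallest possible). At equal list length both classes had more BCL9 than pSTAT3 windows, and the difference between classes was 20.7 points (exact permutation p = 0.333). So did shared promoter regions, by 20.2 points, and all BCL9 regions, by 16.4 points, so this order was not particular to BCL9-only promoter regions. For pSTAT3-only promoter regions the value was -0.532 points.

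**Figure D3:**
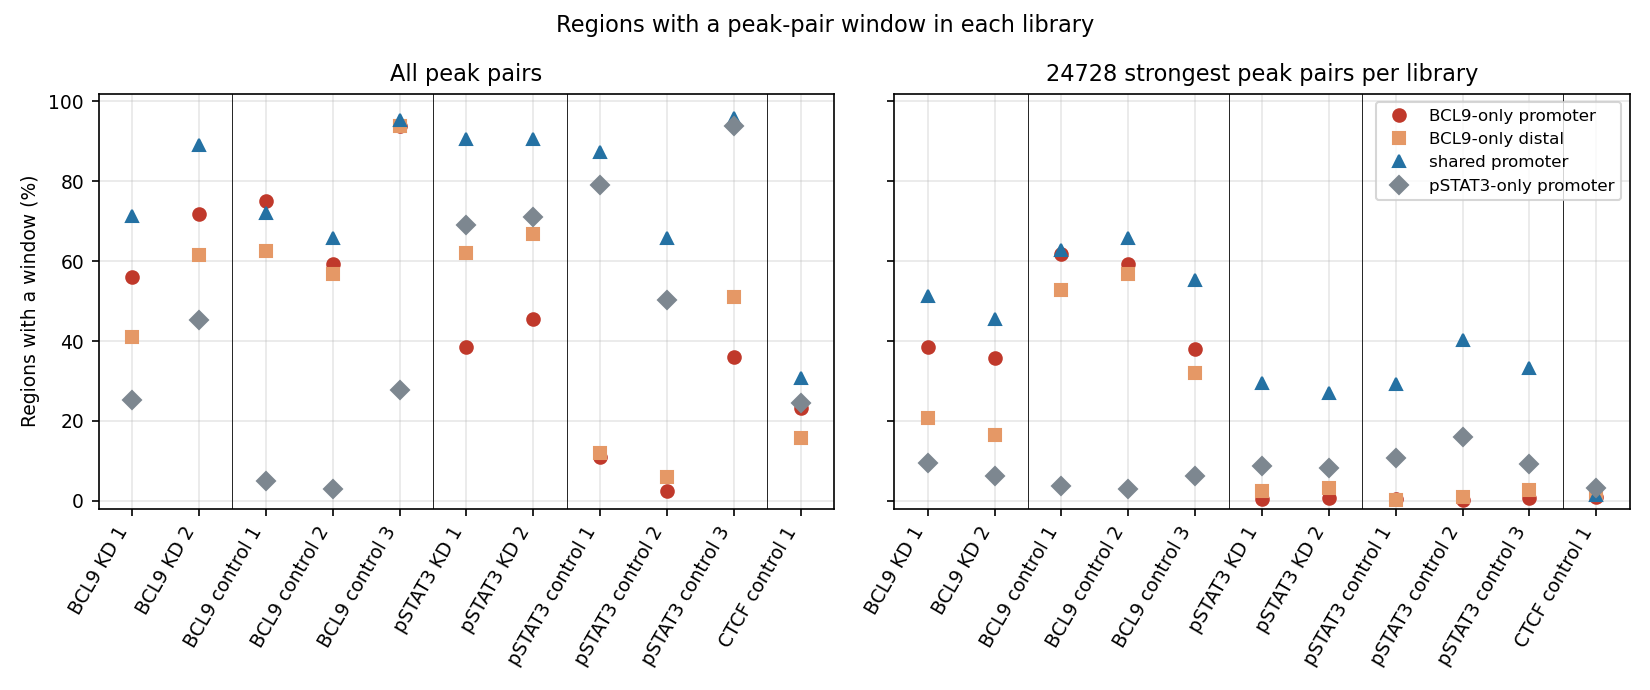
Percentage of regions with at least 1 window in each of 11 libraries, for all peak pairs (left) and the 24728 strongest pairs per library (right). At BCL9-only promoter regions the KD BCL9 libraries stand at 56.0% and 71.9% and the KD pSTAT3 libraries at 38.6% and 45.6% in the left panel, and at 38.4% and 35.7% against 0.478% and 0.638% in the right panel. Control BCL9 and control pSTAT3 lists chose the regions.

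In both KD BCL9 libraries 310 regions (49.4%) had a window, against 63.9% of all BCL9 regions. In 1 of the 2 there were 182, and 135 had none. Both KD pSTAT3 libraries had a window at 132 regions (21.1%), against 80.8% of all BCL9 regions. The absence of control pSTAT3 regions was part of the selection. A single control pSTAT3 library still had a window at 278 regions, at 16 regions 2 libraries had windows that did not overlap each other, and 333 regions had none in any control pSTAT3 library. At 156 regions none of the 5 pSTAT3 libraries had a window.

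In KD cells these regions ranked higher in the BCL9 lists than in the pSTAT3 lists. Where a window was present, its median was 13 and 12 tags in the KD BCL9 libraries, at rank percentiles of 86.5 and 92.3 within the list. In the KD pSTAT3 libraries the median was 6 and 5 tags, at percentiles of 59.5 and 51.9. In the control BCL9 libraries, which chose the regions, the median percentiles were 58.2, 56.9 and 77.0, and in the control pSTAT3 libraries 18.4, 55.3 and 61.8. The control ranks of the antibodies thus overlapped. Shared promoter regions had the same medians for KD BCL9, 13 and 12 tags, and 15 tags in each KD pSTAT3 library. A CTCF window stood at 146 BCL9-only promoter regions (23.3%, interval 20.1% to 26.8%), against 19.7% of all BCL9 regions and 30.7% of shared promoter regions. With equal list length the CTCF share was 0.957%.

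CCAAT boxes and BCL9 windows in the KD libraries went together. In KD BCL9 replicate 1, 49.6% of the 377 regions without a box had a window, 54.5% of those with 1 box, 67.9% with 2 and 82.2% with 3 or more. In KD BCL9 replicate 2 the shares were 65.8%, 71.9%, 87.5% and 91.8%. The median tags where a window was present were 11, 14, 24 and 19 in replicate 1, and 9, 12, 18 and 21 in replicate 2. In the KD pSTAT3 libraries the shares in the same order were 44%, 33.1%, 23.2% and 31.5% in replicate 1. They were 50.7%, 38.8%, 46.4% and 30.1% in replicate 2, so in neither library did they fall at every step.

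Regions with a box minus regions without gave 16 and 15.4 points in the KD BCL9 libraries and -13.6 and -12.7 points in the KD pSTAT3 libraries. The difference of 28.9 points had an exact two-sided permutation p of 0.333, the smallest that 4 libraries allow here. The comparison was added after the values were seen. By number of BCL9 libraries with a window, 30.8% of the 130 regions found in 2 of 5 had a box, 25.2% of 167 in 3, 46.9% of 179 in 4 and 55.6% of 151 in all 5. The control libraries among these 5 chose the regions, so the shares are a description. The 151 regions in all 5 were also longer, with a median of 280 bp against 145 bp for those in 2. The box was always sought in the same 200 bp, whereas a window counted wherever it overlapped the region. The part of region length in these shares was not tested.

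**Figure D4:**
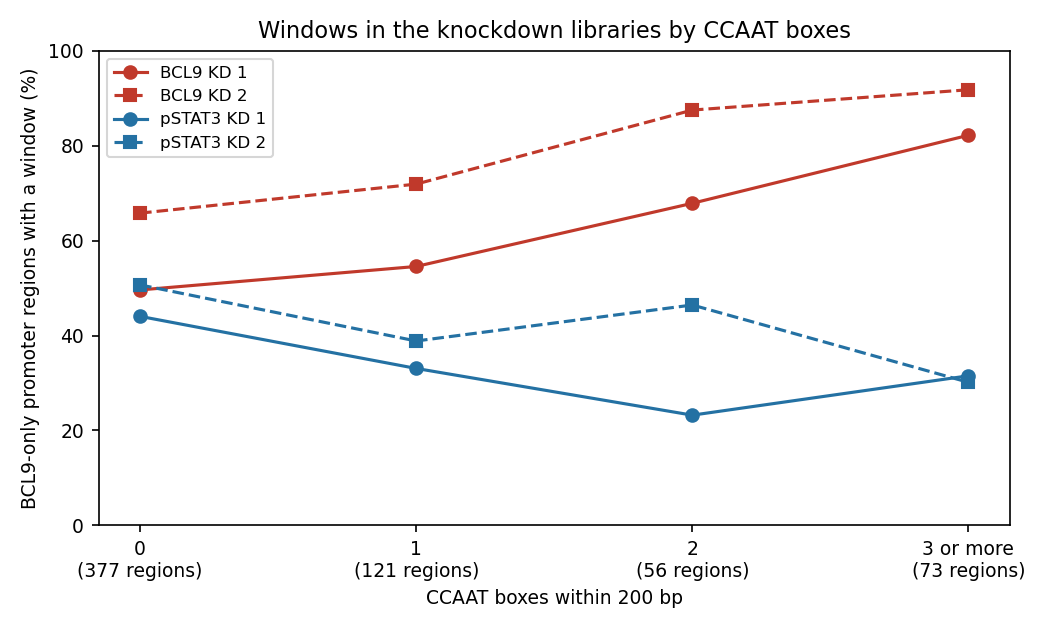
Percentage of BCL9-only promoter regions with a window in each KD library, by the number of CCAAT boxes within 200 bp of the BCL9 midpoint (377, 121, 56 and 73 regions). Shares in the KD BCL9 libraries rise to 82.2% and 91.8% at 3 or more boxes, while those in the KD pSTAT3 libraries are 31.5% and 30.1% there.

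In all 5 BCL9 libraries and none of the 5 pSTAT3 libraries, 39 regions had a window. The 12 of these with the highest KD BCL9 ranks are named next, and 10 of the 12 held a CCAAT box somewhere in the region. Of the 151 regions in all 5 BCL9 libraries, 55.6% held a box within 200 bp. The whole region is often a longer stretch than 200 bp, and the part of length in this count was not tested. Because high KD rank chose the 12, their tags are a description. Tags were not scaled for depth, and at 7 of the 12 both KD libraries were above every control library. Over the 151 regions with windows in all 5 BCL9 libraries this held for 38 (25.2%), against 19% of all BCL9 regions with 5 windows.

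EVI5L, which encodes a Rab GTPase-activating protein, had 105 and 72 BCL9 tags in KD cells, against 21, 36 and 45 in control cells. Its region lay at chr19:7894657-7895092, 230 bp upstream of the TSS. SP1, the founding GC-box factor, had 71 and 96 tags in KD cells, against 34, 35 and 17 in control cells, at chr12:53773483-53773926. A second SP1 region, at chr12:53773187-53773467, had 12 and 29 tags in KD cells, against 16, 12 and 20 in control cells. Each SP1 region held 5 CCAAT boxes. The KD and control values overlapped at the second region and not at the first.

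DNM2, the dynamin of general endocytosis, had 60 and 67 tags in KD cells, against 59, 47 and 27 in control cells, and 7 boxes at chr19:10828317-10828765. OSBP, an oxysterol-binding lipid carrier, had 40 and 82 tags in KD cells, against 12, 34 and 39 in control cells, and 8 boxes at chr11:59383292-59383733. G3BP1, which nucleates stress granules, had 61 and 64 tags in KD cells, against 16, 44 and 20 in control cells, and 5 boxes at chr5:151151063-151151468. At these 3 genes the KD and control values did not overlap, by a margin of 1 tag at DNM2 and OSBP. The G3BP1 region also had 49 CTCF tags.

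NDUFAF8, an assembly factor of respiratory complex I, had 34 and 41 tags in KD cells, against 7, 23 and 25 in control cells, with 6 boxes. PNN, a protein of desmosomes and nuclear speckles, had 58 and 30 tags in KD cells, against 14, 15 and 77 in control cells, with 2 boxes. CYTH2, an exchange factor for ARF GTPases, had 58 and 37 tags in KD cells, against 21, 25 and 45 in control cells, with 3 boxes. KMT5C, a histone methyltransferase, had 34 and 42 tags in KD cells, against 13, 26 and 37 in control cells. FRYL had 58 and 27 tags in KD cells, against 12, 35 and 11 in control cells. The last 4 of these overlapped between KD and control cells.

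FAM53C and RBBP8NL were the 2 named regions without a CCAAT box. FAM53C had 69 and 51 tags in KD cells, against 17, 30 and 34 in control cells. RBBP8NL had 58 and 55 tags in KD cells, against 25, 18 and 66 in control cells, so that its values overlapped.

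**Figure D5:**
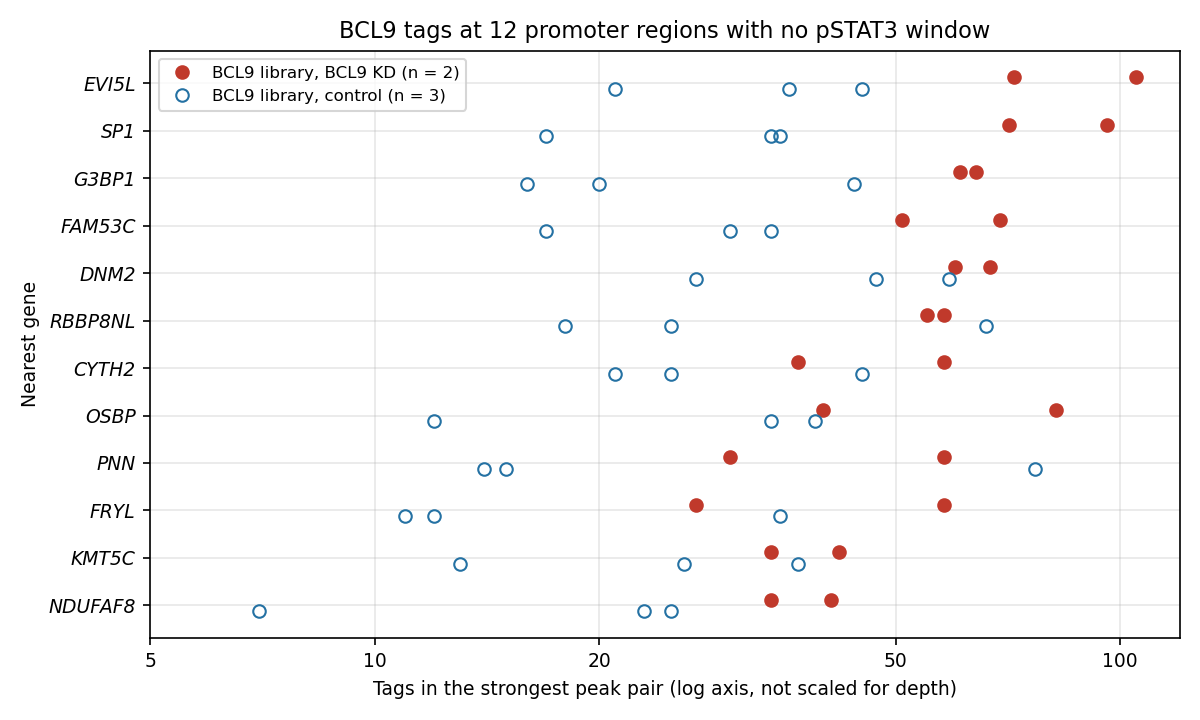
Tags of the strongest BCL9 peak pair at the 12 named regions, on a log axis and not scaled for depth, for 2 KD libraries (filled) and 3 control libraries (open). EVI5L lies highest in KD cells with 105 and 72 tags, against 21, 36 and 45 in control cells.

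The strongest position of all was at SPATC1L, which was chosen after its values were seen. Its region at chr21:47604358-47604769 had 412 and 271 tags in KD cells, against 116, 159 and 269 in control cells, which is the highest tag number of every one of the 5 BCL9 lists. One KD pSTAT3 library had 5 tags there, and the other 4 pSTAT3 libraries and CTCF had none. It held no CCAAT box and is a tandem repeat: shifted by 53 bp the region matched itself at 71.3% of positions, the third highest of the 627. It is shown, as the strongest region that lacks the box, over 120 bp round the BCL9 midpoint at chr21:47604514-47604633.
SPATC1L: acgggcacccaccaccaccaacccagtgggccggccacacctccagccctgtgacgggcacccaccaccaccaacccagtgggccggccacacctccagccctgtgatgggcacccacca

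Other regions with high BCL9 ranks in all 5 libraries were also named after their values were seen. SP2 had 161 and 97 tags in KD cells, against 37, 58 and 97 in control cells. ZNF687 had 112 and 50 tags in KD cells, against 26, 38 and 69 in control cells, and 4 boxes. NAIF1 had 103 and 52 tags in KD cells, against 31, 76 and 111 in control cells, and 3 boxes. Its highest control value was above both KD values. ANKHD1 had 74 and 97 tags in KD cells, against 30, 62 and 62 in control cells, and 4 boxes. PRMT1, the main arginine methyltransferase, had 65 and 71 tags in KD cells, against 26, 44 and 46 in control cells, with 6 boxes over a long region. POLR1G, a subunit of RNA polymerase I, had 89 and 59 tags in KD cells, against 32, 61 and 75 in control cells. SLC35E2B, which has a near-identical copy in the genome so that reads may be shared, had 70 and 51 tags in KD cells, against 25, 64 and 57 in control cells.

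A pSTAT3 window in both KD libraries and in no control pSTAT3 library was found at 39 of the 627 regions. The same count was not made for the other classes. Whatever the control lists held, both KD pSTAT3 libraries had a window at 21.1% of the 627 regions. The share was 49.0% for BCL9-only regions away from promoters and 80.8% for all BCL9 regions. The 8 with the highest pSTAT3 ranks had between 7 and 18 pSTAT3 tags in KD cells. LAMB3, a laminin chain of the basement membrane, had 14 and 10 pSTAT3 tags in KD cells and none listed in the 3 control libraries. Its BCL9 tags were 8 and 8 in KD cells, against 10 and 8 in 2 control libraries. ASH1L, a histone methyltransferase, had 12 and 7 pSTAT3 tags in KD cells, with 27 and 33 BCL9 tags in KD cells, against 6, 16 and 26 in control cells. BBOX1, FCGR2A, RNF44, LUC7L2, TRAPPC6B and MBTD1 were the others, and 3 of the 8 held a CCAAT box within 200 bp, close to the 39.9% of all 627 regions. The KD pSTAT3 lists were longer than the control lists, and the part of list length in these windows was not tested.

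By gene, 694 of 19748 protein-coding genes (3.51%) had a BCL9-only promoter region within 1 kb of a TSS. In these gene counts a region within 1 kb of TSSs of more than 1 gene counted for each. For example, the regions counted for ORC6, HNRNPA1, HNRNPK and MRPS7 lay nearer to TSSs of VPS35, CBX5, RMI1 and GGA3. Histone genes had 15 of 80 (18.8%), and these were mostly replication-dependent genes of the chromosome 6 cluster. H2AZ2, a histone variant gene with 3 CCAAT boxes, had 29 and 18 BCL9 tags in KD cells, against 18, 11 and 22 in control cells. H4C11 had 12 and 22 tags in KD cells, against 6, 17 and 13 in control cells, and H4C8 had 18 and 8 tags in KD cells, against 9, 16 and 18 in control cells. The values of all 3 overlapped between KD and control cells. Histone genes are near-identical copies of each other, so reads may be shared among them.

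Cytosolic ribosomal protein genes had 8 of 86 (9.30%), namely RPL4, RPL22, RPL22L1, RPL24, RPL28, RPL41, RPS6 and RPS14. RPL4 had 21 and 15 tags in KD cells, against 9 and 6 in 2 control libraries and none listed in the other. RPL22 had 18 and 16 tags in KD cells, against 10 and 14 in 2 control libraries. Mitochondrial ribosome genes had 6 of 78 (7.69%), spliceosome genes 4 of 50 (8%), translation initiation genes 3 of 40 (7.5%) and complex I genes 2 of 37 (5.41%). HNRNPC, an RNA-binding protein of the spliceosome list, had 20 and 37 tags in KD cells, against 7, 12 and 10 in control cells, with 4 boxes. No proteasome gene of 48 and no tissue-specific gene of 27 had one.

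Of the cell cycle and DNA replication genes, 3 of 47 (6.38%) had a region, MCM3, MCM4 and ORC6, which belong to the replication licensing machinery. MCM4 had 20 and 14 tags in KD cells, against 6, 14 and 12 in control cells. Zinc finger genes had 18 of 536 (3.36%), close to all genes. ZNF143, a promoter-binding factor, had 25 and 34 tags in KD cells, against 19, 27 and 30 in control cells. ZNF77 had 6 CCAAT boxes with 8 and 7 tags in KD cells, against 5, 9 and 10 in control cells.

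Wnt components and targets had 3 of 48 (6.25%), against 3.51% of all genes, namely DVL3, TLE3 and CTNNBIP1. Their BCL9 tags were between 5 and 10. DVL3, a Dishevelled protein that relays the Wnt signal, had 7 and 5 tags in KD cells, against 6 and 6 in 2 control libraries. TLE3, a corepressor that competes with β-catenin for TCF factors, had 5 tags in 1 KD library, against 9 and 10 in 2 control libraries. CTNNBIP1, an inhibitor of β-catenin, had none listed in KD cells, against 5 and 9 tags in 2 control libraries.

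Of the STAT3 pathway, JAK2 was the 1 gene of 32 (3.13%), close to the 3.51% of all genes, with 5 tags in 1 KD BCL9 library, against 10 and 11 in 2 control libraries. Of the AP-1 factors it was ATF7, 1 of 17 (5.88%), with 36 and 15 tags in KD cells, against 12, 9 and 22 in control cells. Basal epithelial genes had LAMB3 and ITGB4, 2 of 26 (7.69%), and integrins and matrix metalloproteinases had ITGB4 alone, 1 of 49 (2.04%). BCL9, BCL9L, PYGO1, PYGO2, STAT3 and CTNNB1 had none.

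Genes of the endoplasmic reticulum stress response were assembled as a list after several had been seen among the regions, so their count is a description. Of 33 such genes 9 (27.3%) had a region. These were the chaperones HSPA5 and CANX, the stress sensors ATF6 and EIF2AK3, the transcription factor DDIT3, and PPP1R15A, SYVN1, VCP and CHAC1. EIF2AK3, the kinase PERK that phosphorylates eIF2α, had 3 regions, which with PPFIBP2 was the highest number for a gene. The strongest, at chr2:88927050-88927330, had 17 and 44 BCL9 tags in KD cells, against 7, 22 and 51 in control cells, with 5 boxes and no pSTAT3 window in any library. Its neighbour at chr2:88926854-88927042 had 10 and 44 tags in KD cells, against 9 and 7 in 2 control libraries. These neighbouring regions nearly touch, and a window that overlaps both is counted at each. The 44 tags may therefore be the same peak pair at both regions. The third EIF2AK3 region, at chr2:88990785-88990935, lay apart from these and also within 1 kb of a TSS of RPIA. It had 7 BCL9 tags in 1 KD library, against 9 and 6 in 2 control libraries.

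HSPA5, the main chaperone of the endoplasmic reticulum, had no listed tags in KD cells, against 6 and 9 in 2 control libraries, and 3 boxes. VCP, an ATPase of protein degradation, had 17 tags in 1 KD library, against 5 and 17 in 2 control libraries, and 5 boxes. The known endoplasmic reticulum stress element is CCAAT followed after 9 bases by CCACG. It was present in 2 of the 627 regions (0.319%), CANX and SYVN1, and within 200 bp of 54 of 78399 promoters (0.0689%). Both stretches are shown with 10 bases on either side, at chr5:179125769-179125807 and chr11:64902520-64902558, with both ends of the element in capitals. The EIF2AK3 stretch, at chr2:88927110-88927269, has its CCAAT boxes in capitals.
CANX: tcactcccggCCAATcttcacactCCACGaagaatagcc
SYVN1: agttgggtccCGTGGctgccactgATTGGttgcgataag
EIF2AK3: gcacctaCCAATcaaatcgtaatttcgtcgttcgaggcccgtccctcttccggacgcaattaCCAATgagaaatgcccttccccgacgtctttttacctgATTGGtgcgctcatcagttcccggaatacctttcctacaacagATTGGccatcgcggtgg

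CANX had 19 BCL9 tags in 1 KD library, against 14 and 12 in 2 control libraries, and SYVN1 had 11 tags in 1 KD library, against 10 and 8 in 2 control libraries. None of the 5 pSTAT3 libraries had a window at CANX, HSPA5, VCP, DDIT3, PPP1R15A or the 3 EIF2AK3 regions. Of all 627 BCL9-only promoter regions, 156 also had no window in any pSTAT3 library, and the difference was not tested. The other genes of the list had pSTAT3 windows. SYVN1 had 4 pSTAT3 tags in KD replicate 1 and 5 in control replicate 1, and CHAC1 had 8 in control replicate 3. ATF6 had 10 and 14 BCL9 tags in KD cells, against 9 and 9 in 2 control libraries, and 6 and 7 pSTAT3 tags in KD cells.

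Across chromosomes, the share of genes with a region ran between 0.696% on chromosome X (6 of 862) and 5.89% on chromosome 15 (35 of 594). Chromosome 19, rich in genes, had 71 regions and a share of 5.43%, and chromosome 17 had 52 regions and 5.09%.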

How the data were processed

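ChIP-exo libraries of DCIS.COM cells were read as the authors' deposited peak-pair lists, one per library, on hg19. The deposited score has the unit signal and holds whole tags multiplied by a constant specific to its library, the step (largest deviation 3.43e-10 tags); how the step was set and the aligner are not given in the sources used here, and the submitters' notes name bcl2fastq. List totals (24728 to 493174 peak pairs) do not stand for depth, and read numbers were not used. Control replicate 1 of each antibody carries 1 run number where the others carry 3.

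Windows of 100 bp were merged per antibody and kept at 2 of 3 control libraries. TSSs were the 78394 positions of protein-coding transcripts in GENCODE 44 lifted to GRCh37 (78399 where a position used on both strands counts for each), and distance was taken from the region midpoint. Motif strings were searched on both strands. Shares were compared between 2 BCL9 and 2 pSTAT3 KD libraries by exact two-sided permutation. Genes were named by the nearest TSS and by fixed rules: KD BCL9 rank with no pSTAT3 library (12), KD pSTAT3 rank (8), up to 6 per gene list (a subset is printed), distance limits, numbers of regions, and 6 study genes. Regions and lists were chosen with earlier results of these data known. Alternatives are given in the closing section. The region and window steps were tested on simulated lists. Python 3.11.15, numpy 2.4.6, pandas 2.3.3, pysam 0.24.0, scipy 1.17.1 and matplotlib 3.10.9 were used.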

Additional observations from a re-analysis of the deposited data

Results flagged for a closer look

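A pair of contrasts ran in opposite directions in the BCL9 and pSTAT3 libraries of KD cells, which is why they are listed here. BCL9-only promoter regions with a CCAAT box had windows more often than those without in both KD BCL9 libraries and less often in both KD pSTAT3 libraries, a difference of 28.9 points. BCL9-only regions at promoters had windows more often than those away from promoters in both KD BCL9 libraries and less often in both KD pSTAT3 libraries, a difference of 35.0 points. Each has an exact permutation p of 0.333, the smallest for 2 against 2 libraries, so neither is shown to exceed the spread between libraries. Groups here held at most 3 libraries, too few to look for single libraries far from the rest.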

How the results depend on the processing

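The number of BCL9-only promoter regions depended on the lists. It was 627, and fell to 176 with all 3 control BCL9 libraries required, 333 with no pSTAT3 window in any control library and 349 with at least 9 tags, where 227 of the 627 overlapped one of the 349. Leaving out 1 control library at a time gave 214 (without control BCL9 replicate 3) to 859 (without control pSTAT3 replicate 3), with 337 without control BCL9 replicate 1. Equal list length, 200 bp windows, TSS limits of 500 bp and 2 kb, distance from the region edge, and the omission of both single-run libraries gave 445 to 729. Equal list length gave 488, and 283 of the 627 overlapped one of these.

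The difference between the mean shares of KD BCL9 and KD pSTAT3 libraries stayed positive in every alternative run. It was 21.9 points, and 13.9 to 29.8 with 1 KD library left out, lowest without KD BCL9 replicate 2. With 200 bp windows it was 13.5, with no control pSTAT3 window 28.8, and 39.2 and 10.3 for regions with and without a CCAAT box. For regions without a box the libraries overlapped, with KD BCL9 replicate 1 at 49.6% and KD pSTAT3 replicate 2 at 50.7%. There the exact two-sided permutation p was 0.667. The replicate block, pairing libraries by number, gave 21.9 points (pairs 17.4 and 26.3, exact p = 0.5). Over the regions same-numbered deviations correlated at -0.04. The labels do not state whether libraries of the same number share a batch, and this correlation cannot decide it. The CTCF share was 0.957% at equal list length and 7.02% with at least 9 tags. Over 200 bp the CCAAT share was 39.9%, against 26.5% of all promoters. The AP-1 share over 200 bp was 2.71% (interval 1.70% to 4.30%), against 24.8% of shared promoter regions and 4.17% of all promoters. That interval covers the share of all promoters, which the interval over 100 bp did not. Over 100 bp the CCAAT share was 43.7% over the 151 regions in all 5 BCL9 libraries, 30.3% without the single-run libraries and 38.7% at 300 to 0 bp upstream. Counting gene 5' ends only left no region for the basal epithelial or integrin lists. With 2 KD libraries per antibody no p below 0.333 was possible.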
